A study of Homo sapiens with 16 samples.

Results

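Transcription of 8 genes that hold back the cell cycle was followed in LNCaP cells after ionizing radiation and the androgen receptor inhibitor enzalutamide. The 8 genes were taken by name from the 60605 gene identifiers of the deposited count tables: CDKN1A, BTG2, PLK2, PLK3 and GADD45A, which are known targets of p53, and CDKN1B, CDKN1C and CDKN2C, which are CDK inhibitors outside the core p53 programme. All 8 passed the filter on low counts in each comparison reported here. LNCaP is an established human prostate cancer line that depends on androgen. The assay was PRO-seq, a nuclear run-on method that counts RNA polymerases engaged on a gene, so the values are levels of transcription and not of mature mRNA.

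There were 16 libraries in 2 batches. In batch 2, cells in whole medium were given the DMSO vehicle or 10 µM enzalutamide for 90 min, with 6 Gy delivered to the irradiated dishes after 30 min and 60 min of incubation following it. Its 4 groups were vehicle, vehicle with 6 Gy, enzalutamide, and enzalutamide with 6 Gy, each with replicates 3 and 4. Batch 1 held mock-treated cells and cells given 6 Gy, without enzalutamide, each with replicates 1 and 2; no separate timing is given for it. Every replicate of batch 1 has a library t1 and a library t2. What t1 and t2 stand for is not given in the labels, so their counts were summed to 1 sample. Nothing in the labels says that replicates came from separate cultures, so p-values measure the spread between these samples, which may be technical.

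When DNA breaks activate p53, it binds response elements in its target genes and raises their transcription. The product of CDKN1A, p21, binds cyclin-CDK complexes and stops phosphorylation of RB, which keeps E2F target genes silent. BTG2 is an antiproliferative protein that recruits the CCR4-NOT deadenylase, GADD45A is a stress sensor that binds CDK1 and PCNA, and PLK2 and PLK3 are polo-like kinases of the stress response. The proteins p27 (CDKN1B) and p57 (CDKN1C) belong to the same Cip/Kip family as p21, whereas p18 (CDKN2C) is an INK4 inhibitor that binds CDK4 and CDK6. These last 3 are regulated largely by other routes, such as protein turnover, imprinting and E2F.

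On hg38, in the RefSeq annotation of GRCh38.p14, the genes lie at chr6:36676463-36687332 (CDKN1A), chr1:203305519-203309602 (BTG2), chr5:58453982-58460086 (PLK2), chr1:44800377-44805990 (PLK3), chr1:67685201-67688334 (GADD45A), chr12:12717368-12722369 (CDKN1B), chr11:2883218-2885775 (CDKN1C) and chr1:50960745-50974634 (CDKN2C). RefSeq start sites were matched for 6 of the 8, all but GADD45A and CDKN1C. The 250 bases upstream of a start follow for the 4 p53 targets whose responses to 6 Gy are compared and for CDKN1B, because the genes split between those that rose several fold, one that did not pass the test and one that fell. They are at chr6:36678464-36678713 (CDKN1A, plus strand, before a start inside the annotated span), chr1:203305269-203305518 (BTG2, plus), chr5:58460087-58460336 (PLK2, minus), chr1:44800127-44800376 (PLK3, plus) and chr12:12717118-12717367 (CDKN1B, plus). Capitals mark a match to the p53 half-site consensus.
CDKN1A: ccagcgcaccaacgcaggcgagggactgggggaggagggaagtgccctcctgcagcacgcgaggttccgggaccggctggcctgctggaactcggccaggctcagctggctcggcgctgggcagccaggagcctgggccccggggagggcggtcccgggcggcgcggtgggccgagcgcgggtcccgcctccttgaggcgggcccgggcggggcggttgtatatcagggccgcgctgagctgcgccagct
BTG2: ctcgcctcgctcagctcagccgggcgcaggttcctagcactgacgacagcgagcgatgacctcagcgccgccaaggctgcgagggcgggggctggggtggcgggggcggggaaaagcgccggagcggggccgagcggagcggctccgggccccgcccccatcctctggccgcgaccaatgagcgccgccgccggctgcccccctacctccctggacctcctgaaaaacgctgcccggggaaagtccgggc
PLK2: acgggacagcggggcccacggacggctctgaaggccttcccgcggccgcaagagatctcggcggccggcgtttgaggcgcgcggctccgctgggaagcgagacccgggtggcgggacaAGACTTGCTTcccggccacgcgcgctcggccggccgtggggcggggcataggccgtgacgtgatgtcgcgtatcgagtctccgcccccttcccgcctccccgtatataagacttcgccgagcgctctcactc
PLK3: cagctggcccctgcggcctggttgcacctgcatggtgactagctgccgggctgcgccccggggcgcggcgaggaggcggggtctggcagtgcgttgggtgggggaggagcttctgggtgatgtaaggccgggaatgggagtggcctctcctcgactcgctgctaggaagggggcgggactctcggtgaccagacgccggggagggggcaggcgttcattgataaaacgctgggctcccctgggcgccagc
CDKN1B: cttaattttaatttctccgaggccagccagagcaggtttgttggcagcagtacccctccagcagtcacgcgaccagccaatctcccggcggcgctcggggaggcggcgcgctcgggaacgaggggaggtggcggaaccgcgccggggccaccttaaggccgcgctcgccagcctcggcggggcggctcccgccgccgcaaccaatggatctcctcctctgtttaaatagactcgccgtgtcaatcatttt

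Each window was searched on both strands for the p53 half-site and for the full p53 site of adjoining half-sites, both by their published consensus, and for the motifs GGGCGG (GC box), CCAAT and TATAAA. A half-site was found in the PLK2 window, beginning 132 bases before the start, and in none of the other 7 windows of these genes, which include 3 for CDKN2C. None of the 8 windows held a full site. Among all 35116 RefSeq windows of this length, 5.573% held a half-site and 0.026% a full site. The GC box was present 4 times in the CDKN1A window, with first bases 104, 94, 45 and 40 bases before the start, 3 times in that of BTG2, 2 times in that of PLK2, and once in those of PLK3 and CDKN1B. Of the 3 CDKN2C windows, one held it 5 times, one once and one not at all; 42.639% of all windows held one. CCAAT was found in the windows of BTG2 and CDKN1B and in 1 of those of CDKN2C, against 32.008% of all windows, and TATAAA in none of the 8, against 10.716%. These are matches of letters in a short window, outside which no search was made, and carry no measurement of binding.

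Total counts were 10494563 to 19905824 per library in batch 2 and 3438642 to 9363458 in batch 1, where summing gave samples of 8022989 to 16851473. Replicates of a group differed by more than sampling noise, with a chi-square per degree of freedom of 3.47 to 6.72 over genes. The t1 and t2 libraries of 1 replicate differed by more, at 6.76 to 30. The mitochondrial share of counts ran from 2.86% to 5.38% in batch 1 libraries and from 0.57% to 0.934% in those of batch 2. Summed over their list, 9 luminal prostate markers reached 2570 to 3482 CPM (counts scaled to library size) in the 12 samples, against 4.37 to 9.0 CPM for 3 basal markers and 0.763 to 2.35 CPM for 4 blood markers. The 3 endothelial markers summed to 15.5 to 36.6 CPM and the 4 stromal markers to 14.1 to 33.4 CPM; no listed marker was at 0 in every sample. After 6 Gy over both batches, 2 of the luminal markers fell, KLK3 (log2 fold change -0.41) and TMPRSS2 (-0.30), and 1 stromal marker rose, ACTA2 (1.44), where the stromal median was -0.11. Their part in the results below was not tested.

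CDKN1A, the gene of p21, gave the largest response of the 8. Its transcription was 36.6 and 44.7 CPM in the vehicle replicates and 310 and 353 CPM after 6 Gy. In batch 1 it was 43.1 and 47.0 CPM in mock cells and 549 and 582 CPM after 6 Gy. Irradiated and unirradiated samples did not overlap in either batch. With 2 samples a group, lack of overlap is weak evidence by itself, for this gene and for those below. The share of all genes without overlap was not counted. All CPM values are scaled by TMM factors within their batch, so levels are not compared between batches. In edgeR's quasi-likelihood test, with p-values adjusted by Benjamini-Hochberg over all genes, the log2 fold change was 3.02 (SE 0.174, adjusted p = 5.5e-07) in vehicle cells and 3.65 (SE 0.152, adjusted p = 1.52e-07) in batch 1. Over both batches the rise was 9.95-fold (95% interval 8.42 to 11.8), which placed CDKN1A at rank 2 from the top of 29195 genes tested.

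BTG2 followed. The vehicle replicates stood at 37.8 and 35.5 CPM and the irradiated ones at 202 and 194 CPM, and in batch 1 mock samples stood at 48.5 and 48.2 CPM against 362 and 334 CPM. The 2 replicates of a group lay close together, and the irradiated groups were far above the others. Its log2 fold change was 2.43 (SE 0.0865, adjusted p = 1.94e-08) in vehicle cells and 2.85 (SE 0.135, adjusted p = 2.51e-07) in batch 1. The rise over both batches was 6.17-fold (95% interval 5.44 to 7.0), at rank 11 of 29195.

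GADD45A and PLK3 rose by less. GADD45A moved from 27.6 and 28.5 CPM in vehicle cells to 68.6 and 79.2 CPM after 6 Gy, and from 66.6 and 49.3 CPM to 158 and 133 CPM in batch 1. PLK3 moved from 12.9 and 10.9 CPM to 35.3 and 41.0 CPM in vehicle cells, and from 14.8 and 13.9 CPM to 45.7 and 42.4 CPM in batch 1. For neither gene did the groups overlap. In both batches together GADD45A rose 2.55-fold (95% interval 2.24 to 2.91, adjusted p = 3.98e-09 by edgeR) and PLK3 3.13-fold (95% interval 2.74 to 3.57, adjusted p = 2.53e-10). The log2 fold change in vehicle cells was 1.40 (SE 0.0994) for GADD45A and 1.69 (SE 0.153) for PLK3, and in batch 1 it was 1.33 (SE 0.149) and 1.62 (SE 0.123). Over both batches GADD45A had rank 112 and PLK3 rank 62 of 29195.

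PLK2, the other polo-like kinase of the group, did not pass the test in vehicle cells, in batch 1 or over both batches. Its levels were 58.1 and 72.7 CPM in vehicle cells and 66.4 and 69.4 CPM after 6 Gy, so that both irradiated values fell between the unirradiated ones. In batch 1 the mock samples stood at 245 and 192 CPM and the irradiated ones at 295 and 282 CPM. The log2 fold change was 0.05 in vehicle cells (95% interval -0.26 to 0.37, adjusted p = 0.921 by edgeR), 0.40 in batch 1 (0.08 to 0.72, adjusted p = 0.26) and 0.22 over both (0.03 to 0.42, adjusted p = 0.24). These batch 1 values are sums of t1 and t2 libraries that moved in opposite directions, as given further on, and the estimate over both batches was 0.64 with t1 alone and -0.39 with t2 alone. In batch 1 the log2 fold change was 0.59 without mock replicate 1 and 0.23 without mock replicate 2. With the replicate number as a block it was 0.41 and passed (adjusted p = 0.000516 by edgeR). Over both batches PLK2 did not pass whichever sample was left out. The t1 and t2 libraries were summed at unequal depth. They held 3438642 and 4584347 counts in mock replicate 1, and 5633290 and 3583636 in mock replicate 2. The part of this mix in the summed values and their spread was not tested. The ratio of PLK3 to PLK2 counts within a sample was 0.149 to 0.222 in vehicle cells and 0.532 to 0.591 after 6 Gy, and 0.0602 to 0.0727 against 0.150 to 0.155 in batch 1.

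**Figure D1:**
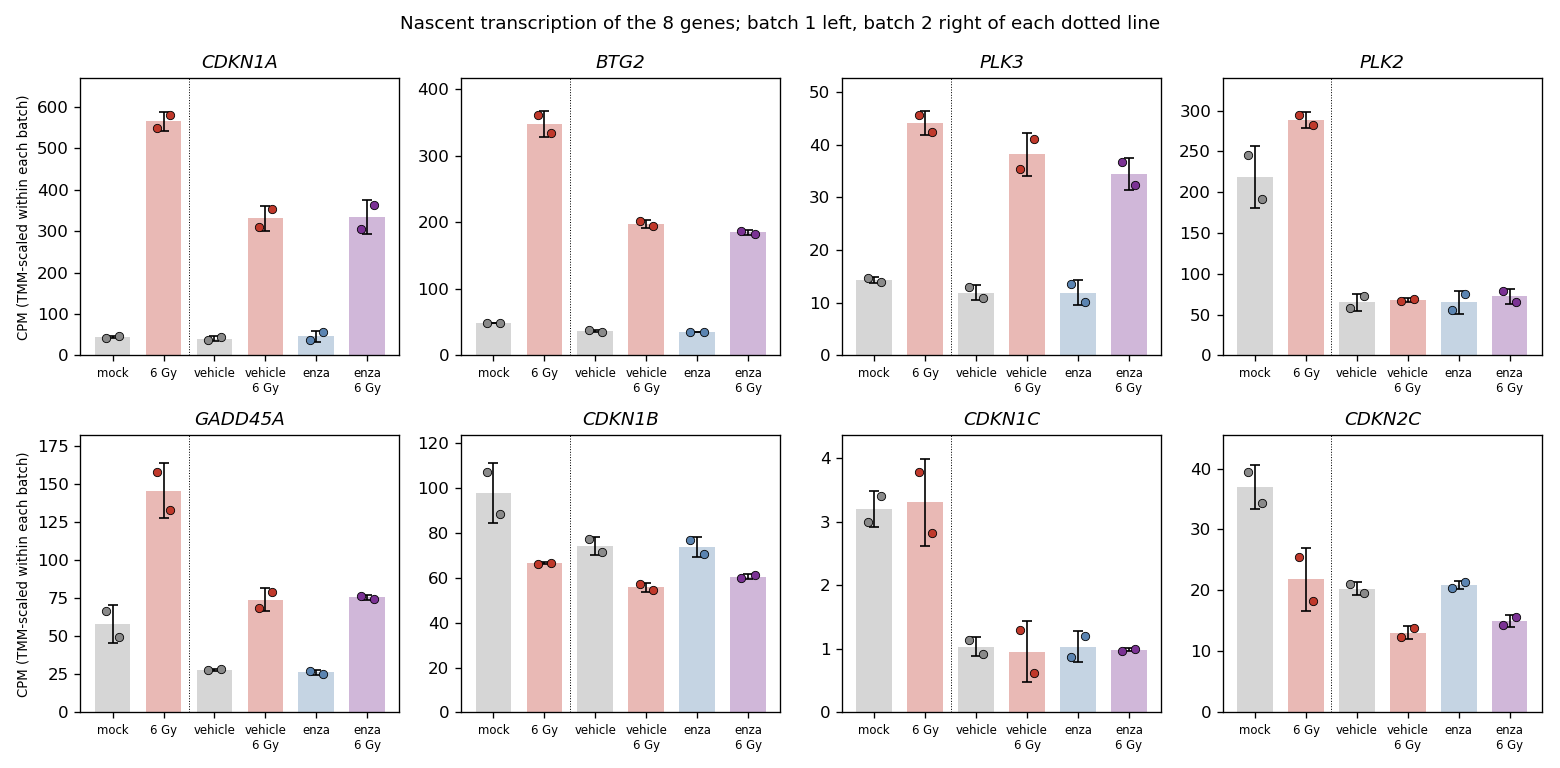
Transcription of the 8 genes in each of the 6 groups, in CPM scaled by TMM factors within a batch, on axes that start at 0; bars are means of 2 replicates, error bars their SD, and points the replicates. In CDKN1A, BTG2, PLK3 and GADD45A every irradiated sample lies above every unirradiated one of its batch, whereas the PLK2 values of vehicle cells (58.1 and 72.7 CPM) enclose those after 6 Gy (66.4 and 69.4 CPM).

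The other 3 CDK inhibitors did not rise. CDKN1B, the gene of p27, was at 77.2 and 71.4 CPM in vehicle cells and 57.3 and 54.5 CPM after 6 Gy, and in batch 1 at 107 and 88.4 CPM against 66.4 and 66.8 CPM. CDKN2C, the gene of p18, was at 21.0 and 19.6 CPM in vehicle cells and 12.4 and 13.8 CPM after 6 Gy, and in batch 1 at 39.5 and 34.4 CPM against 25.4 and 18.2 CPM. For both genes the irradiated samples lay below the unirradiated ones in each batch. With so few samples a group, such a separation is weak evidence by itself. The share of all genes that separate in this way in both batches was not counted. Over both batches CDKN1B fell to 0.711-fold (95% interval 0.637 to 0.793, adjusted p = 0.000255 by edgeR) and CDKN2C to 0.61-fold (95% interval 0.523 to 0.71, adjusted p = 0.000148).

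Within vehicle cells alone these falls were near the threshold. The log2 fold change was -0.41 for CDKN1B (SE 0.0895, adjusted p = 0.0483 by edgeR) and -0.63 for CDKN2C (SE 0.129, adjusted p = 0.0322). Each call was lost when any 1 of the vehicle, irradiated vehicle or irradiated enzalutamide samples was left out, with adjusted p up to 0.587 for CDKN1B and 0.339 for CDKN2C, both in edgeR; the CDKN1B call was also lost with RLE factors (adjusted p = 0.0581). In batch 1 the changes were -0.55 (SE 0.117, adjusted p = 0.0209) and -0.77 (SE 0.155, adjusted p = 0.0163). There CDKN1B lost its call in edgeR without either irradiated replicate (adjusted p = 0.0999 without replicate 1 and 0.126 without replicate 2), and CDKN2C without irradiated replicate 2 (adjusted p = 0.0997). Over both batches both genes kept an adjusted p below the threshold whichever sample was left out, at most 0.00362 for CDKN1B and 0.00137 for CDKN2C.

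CDKN1C, the imprinted gene of p57, was barely transcribed. Its samples held 8 to 48 counts, or 1.14 and 0.926 CPM in vehicle cells, 1.3 and 0.621 CPM after 6 Gy, 3.00 and 3.40 CPM in mock cells and 3.79 and 2.81 CPM after 6 Gy in batch 1. The groups overlapped in both batches. No change passed the test: the log2 fold change over both batches was -0.03, with a 95% interval of -0.53 to 0.47. Within batch 1 it was 0.73 with t1 alone and -0.70 with t2 alone.

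As a count, 6 of the 8 genes passed the test in vehicle cells, where 1.1% of 28651 genes were called, and the same number did in batch 1, where 2.82% of 25889 were, and over both batches, where 4.05% of 29195 were. In each of these the calls were CDKN1A, BTG2, GADD45A and PLK3 upward and CDKN1B and CDKN2C downward. The genes were chosen with earlier results of these data known, so the counts describe them and do not test the choice.

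Irradiation changed the order of the genes. Levels between genes were compared as CPM per kb of the annotated span, with the mean and SD of 2 replicates. In vehicle cells CDKN1B led with 14.9 ± 0.824, followed by PLK2 (10.7 ± 1.69), BTG2 (8.97 ± 0.409), GADD45A (8.95 ± 0.209), CDKN1A (3.74 ± 0.524), PLK3 (2.11 ± 0.256), CDKN2C (1.46 ± 0.0718) and CDKN1C (0.405 ± 0.0602). BTG2 and GADD45A did not differ beyond their spread, and PLK2 stood above BTG2 by about its own SD. After 6 Gy the order in vehicle cells was BTG2 (48.4 ± 1.32), CDKN1A (30.5 ± 2.80), GADD45A (23.6 ± 2.4), CDKN1B (11.2 ± 0.396), PLK2 (11.1 ± 0.352), PLK3 (6.80 ± 0.722), CDKN2C (0.944 ± 0.0714) and CDKN1C (0.374 ± 0.186), and CDKN1B and PLK2 did not differ beyond their spread. The orders with enzalutamide were the same as with vehicle, without and with 6 Gy. Transcription of p27 exceeded that of p21 before irradiation and lay under it afterwards. The ratio of CDKN1A to CDKN1B counts was 0.402 to 0.785 in the 6 unirradiated samples and 5.11 to 8.71 in the 6 irradiated ones. This ratio is not scaled by span, which is 10870 bases for CDKN1A and 5002 for CDKN1B, so per kb it is lower.

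In batch 1 PLK2 headed the mock cells at 35.8 ± 6.18 CPM per kb, ahead of CDKN1B (19.6 ± 2.69) and GADD45A (18.5 ± 3.91), which did not differ beyond their spread, and BTG2 (11.8 ± 0.0542); lower down, CDKN2C (2.66 ± 0.262) and PLK3 (2.56 ± 0.102) did not differ beyond theirs. After 6 Gy BTG2 came first (85.3 ± 4.84), then CDKN1A (52.0 ± 2.14), PLK2 (47.3 ± 1.55) and GADD45A (46.4 ± 5.75), of which CDKN1A and PLK2 did not differ from GADD45A beyond its SD. These are sums of t1 and t2, whose orders differ: BTG2 was followed by PLK2, GADD45A and CDKN1A in t1 and by CDKN1A, GADD45A and PLK2 in t2. The spans include introns and any start not used in these cells.

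The t1 and t2 libraries of batch 1 did not agree on PLK2 and GADD45A. In t1, PLK2 was at 196 and 165 CPM in mock replicates 1 and 2 and at 372 and 480 CPM after 6 Gy. In t2 it was at 275 and 240 CPM in mock cells and at 169 and 120 CPM after 6 Gy. The summed samples therefore combine changes of opposite direction, each library weighted by its depth. The log2 fold change was 1.26 in t1 (adjusted p = 0.000526 by edgeR) and -0.84 in t2 (adjusted p = 0.000712).

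GADD45A rose in both kinds of library but unequally. It went from 39.2 and 33.2 CPM to 185 and 170 CPM in t1, and from 84.7 and 74.8 CPM to 114 and 103 CPM in t2. The log2 fold change was 2.32 in t1 and 0.44 in t2 (adjusted p = 0.00649 by edgeR). PLK3 went from 11.1 and 9.69 CPM to 50.8 and 42.4 CPM in t1, and from 17.0 and 20.7 CPM to 37.2 and 43.0 CPM in t2, with log2 fold changes of 2.20 and 1.11. CDKN1A differed less, from 37.3 and 40.8 CPM to 553 and 582 CPM in t1 and from 46.5 and 58.1 CPM to 542 and 588 CPM in t2. BTG2 went from 35.2 and 42.7 CPM to 377 and 289 CPM in t1 and from 57.0 and 58.4 CPM to 337 and 376 CPM in t2.

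A test of the difference itself, chosen after seeing the data, gave t1 minus t2 values of the log2 fold change of 2.11 for PLK2 (SE 0.281, adjusted p = 4.79e-05 by edgeR), 1.88 for GADD45A (SE 0.199, adjusted p = 8.28e-06), 1.11 for PLK3 (SE 0.267, adjusted p = 0.00365) and 1.47 for CDKN1C (SE 0.56, adjusted p = 0.0459). CDKN2C (0.72), BTG2 (0.49), CDKN1A (0.45) and CDKN1B (0.27) did not pass. The PLK3 call was lost without mock replicate 2 (adjusted p = 0.0667 by edgeR), and the CDKN1C call without any 1 of the 4 samples. CDKN2C passed it without mock replicate 1 or irradiated replicate 2, and with libraries scaled by total counts (0.89, adjusted p = 0.0388 by edgeR). With 4 of 8 genes called against 40.9% of the 23335 genes tested, the disagreement was as common over all genes as among these. This test takes t1 and t2 of a replicate as separate libraries.

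With t1 alone, the falls of CDKN1B (adjusted p = 0.0731) and CDKN2C (adjusted p = 0.16) did not pass in batch 1, and that of CDKN2C missed the threshold over both batches (adjusted p = 0.053), all by edgeR.

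**Figure D2:**
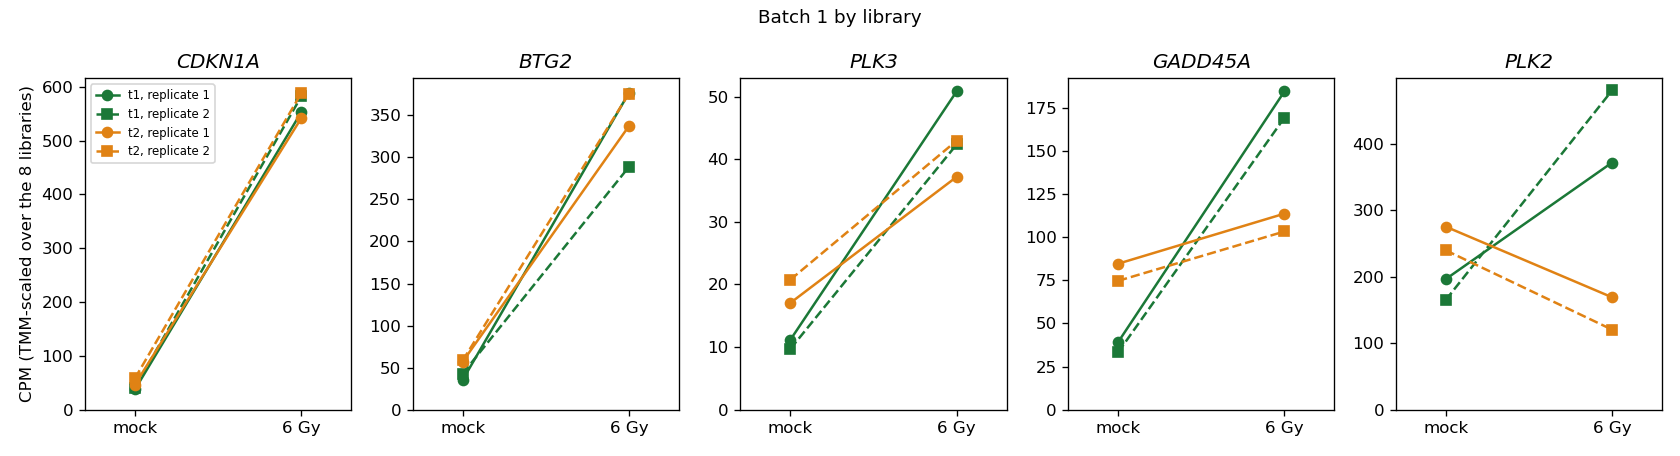
Batch 1 libraries in CPM scaled over the 8 libraries, mock against 6 Gy, with green for t1, orange for t2, circles and solid lines for replicate 1, squares and dashed lines for replicate 2. CDKN1A, BTG2, PLK3 and GADD45A rise along every line, whereas PLK2 rises in both t1 lines and falls in both t2 lines.

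Between the batches the response to 6 Gy was not shown to differ for any of the 8 genes by edgeR or DESeq2, against 0.106% of 29195 genes called by edgeR. The largest estimate was that of CDKN1A, 0.60 higher on the log2 scale in batch 1 than in vehicle cells of batch 2 (95% interval 0.22 to 0.97, unadjusted p = 0.00364, adjusted p = 0.554 by edgeR). BTG2 was 0.39 higher (95% interval 0.08 to 0.71, adjusted p = 0.792). PLK3 (-0.09, interval -0.48 to 0.30) and GADD45A (-0.09, interval -0.48 to 0.30) had estimates near 0, and PLK2 had 0.33 (interval -0.06 to 0.71). For GADD45A the estimate near 0 rests on the sum of t1 and t2: the difference was 0.90 with t1 alone in batch 1 (adjusted p = 0.0209 by edgeR) and -0.95 with t2 alone (adjusted p = 0.000723). Over the alternative settings, t1 or t2 alone among them, the PLK3 difference ran from -0.57 to 0.49. That of PLK2 ran from -0.89 to 1.18, with adjusted p down to 0.00488 by edgeR. With the replicate number as a block, which the labels do not establish as a pairing, the CDKN1A difference of 0.60 passed the test (adjusted p = 0.0148 by edgeR). Batch and any difference in protocol cannot be told apart here.

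Enzalutamide did not detectably alter the transcription of the 8 genes. CDKN1A stood at 36.2 and 55.5 CPM with the drug alone and at 305 and 362 CPM with drug and 6 Gy, which overlaps the vehicle values in both states. BTG2 was at 35.6 and 34.8 CPM with the drug and at 187 and 182 CPM with drug and 6 Gy. The latter pair lay just under the 194 CPM of the lower irradiated vehicle sample. PLK3 was at 13.6 and 10.2 CPM and at 36.6 and 32.2 CPM, and GADD45A at 27.3 and 25.2 CPM and at 76.7 and 74.5 CPM. PLK2 was at 55.1 and 75.1 CPM with the drug alone and at 79.0 and 66.0 CPM with 6 Gy. CDKN1B was at 76.9 and 70.7 CPM and at 59.8 and 61.4 CPM, CDKN2C at 20.4 and 21.4 CPM and at 14.3 and 15.7 CPM, so that after 6 Gy both lay just above the vehicle samples. Without 6 Gy, the GADD45A values with the drug lay just under the vehicle values of 27.6 and 28.5 CPM. With 2 samples a group such separations are weak evidence by themselves, and none of the 8 genes was called for the drug. CDKN1C was at 0.865 and 1.21 CPM and at 0.972 and 1.00 CPM.

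Averaged over both radiation states, the log2 fold change of enzalutamide over vehicle ran from -0.08 for BTG2 (95% interval -0.19 to 0.04) to 0.11 for CDKN2C (-0.07 to 0.30), with adjusted p of 0.876 to 0.996 by edgeR. CDKN1A had 0.08 (-0.16 to 0.31), so a change beyond 1.24-fold upward or to below 0.893-fold lay outside its interval. None of the 8 was called by edgeR or DESeq2 or had an unadjusted p under 0.05, against 0.0628% of 28651 genes called, 18 in all and each lower. With the replicate number as a block 272 genes were called, again none of these 8. Without 6 Gy the estimates ran from -0.09 (GADD45A) to 0.16 (CDKN1A) and with 6 Gy from -0.15 (PLK3) to 0.19 (CDKN2C), where in each state 0.0105% of genes were called and none of these 8.

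Androgen receptor targets served as a check of the drug. Of 16 tested androgen receptor targets, 7 fell with enzalutamide averaged over 6 Gy and none rose, with a median log2 fold change of -0.42 against 0.0007 over all genes. TMPRSS2 fell by 0.58 on the log2 scale (SE 0.0622, adjusted p = 0.00123 by edgeR). KLK3 (-0.66, adjusted p = 0.69), KLK2 (-0.82, adjusted p = 0.549) and FKBP5 (-0.26, adjusted p = 0.22) did not pass the test. The list was written with earlier results of these data known.

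In cells given enzalutamide, 6 Gy raised the same 4 genes. The log2 fold change was 2.88 for CDKN1A (SE 0.174, adjusted p = 1.13e-06 by edgeR), 2.39 for BTG2 (SE 0.0876, adjusted p = 2.8e-08), 1.52 for GADD45A (SE 0.101, adjusted p = 3e-06) and 1.51 for PLK3 (SE 0.156, adjusted p = 0.000161). PLK2 had 0.16 (95% interval -0.15 to 0.48). CDKN1B (-0.29, adjusted p = 0.29) and CDKN2C (-0.48, adjusted p = 0.172) did not pass, so 4 of 8 were called against 0.918% of 28651 genes. With the replicate block both passed (adjusted p = 0.0337 and 0.0194 by edgeR).

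**Figure D3:**
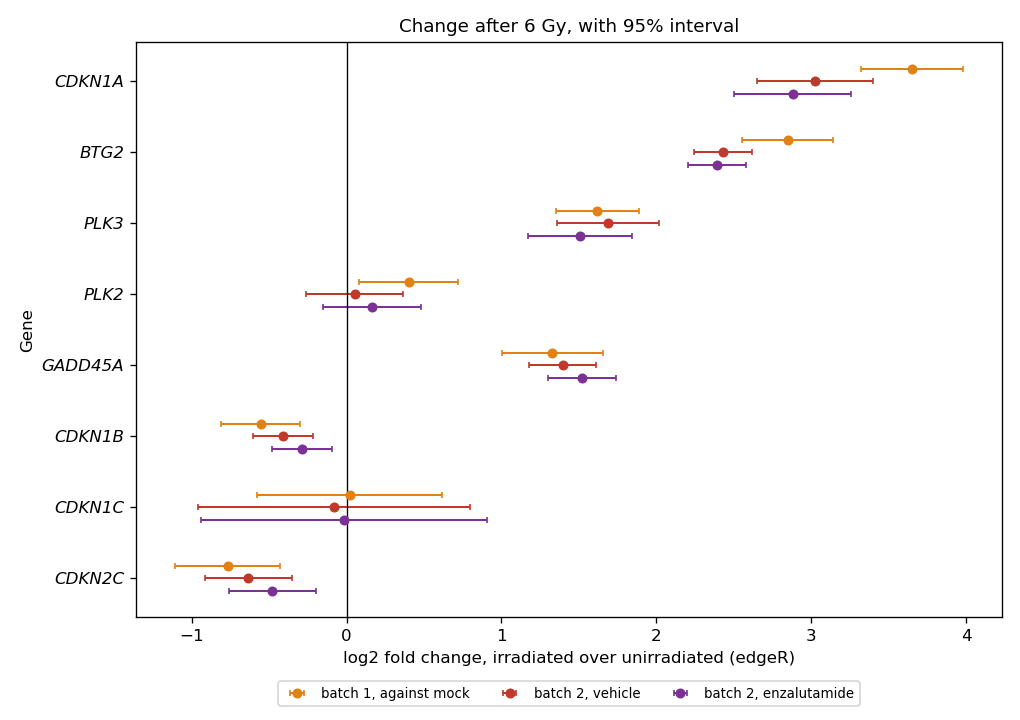
Log2 fold change of each gene after 6 Gy with its 95% interval from edgeR, for batch 1 against mock (orange), vehicle cells of batch 2 (red) and enzalutamide cells of batch 2 (purple). The intervals of CDKN1A, BTG2, PLK3 and GADD45A lie above 0 in all 3 comparisons, those of CDKN1B and CDKN2C below 0, and the vehicle interval of PLK2 (-0.26 to 0.37) spans 0.

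That CDKN1B and CDKN2C passed with vehicle and not with enzalutamide does not show a difference, because the interaction did not pass for any gene. It was 0.12 for CDKN1B (95% interval -0.15 to 0.40) and 0.15 for CDKN2C (-0.24 to 0.55). For the genes that rose it was -0.14 for CDKN1A (-0.65 to 0.36), -0.04 for BTG2 (-0.30 to 0.22), 0.12 for GADD45A (-0.18 to 0.43) and -0.18 for PLK3 (-0.65 to 0.29). PLK2 had 0.11 (-0.34 to 0.56). Of 28651 genes 0% were called for the interaction by edgeR, with 343 at an unadjusted p under 0.05, and DESeq2 called 0. Those 343 are a smaller share of the genes than 0.05, so the test may be conservative. The BTG2 interval is the narrowest: its response to 6 Gy with the drug was between 0.813 and 1.16 times that with vehicle. The interval for CDKN1A leaves room for a factor of 0.638 to 1.29.

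**Figure D4:**
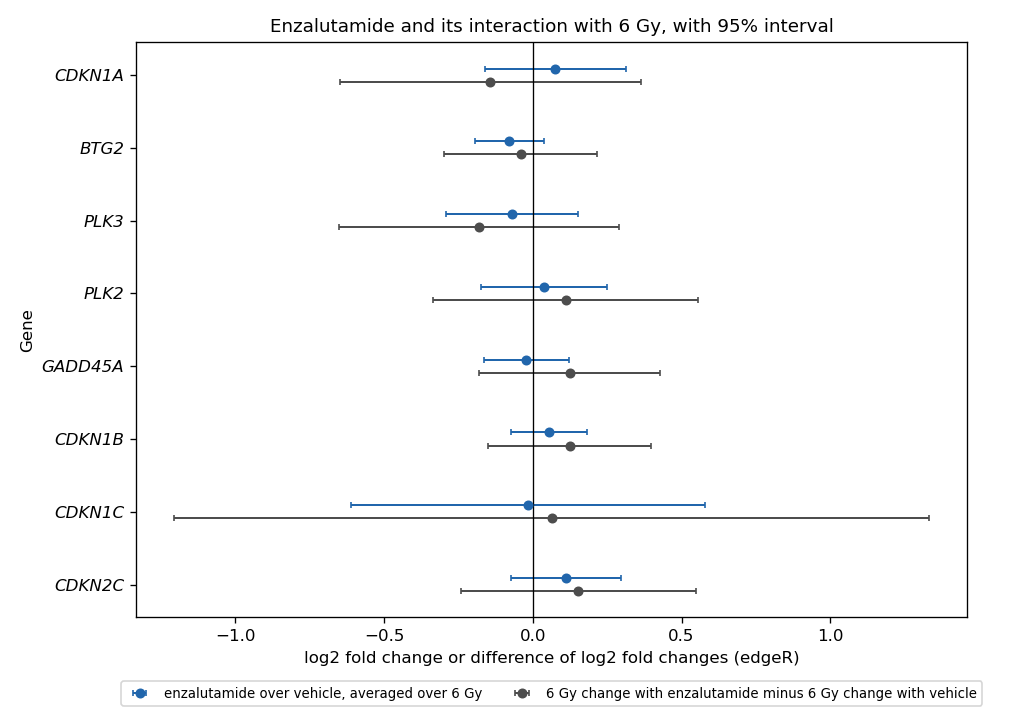
Log2 fold change of enzalutamide over vehicle averaged over 6 Gy (blue) and the difference between the 6 Gy responses with enzalutamide and with vehicle (grey), each with its 95% interval from edgeR. Every interval includes 0; the widest belongs to CDKN1C, which has 8 to 48 counts per sample.

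Genes beside the 8 give the local context. DINOL, a long noncoding RNA on the strand opposite to CDKN1A whose annotation overlaps it, rose by 1.95 on the log2 scale in vehicle cells (SE 0.272, adjusted p = 0.00172 by edgeR) and by 2.83 in batch 1. Whether the counting used strand is not given in the sources used here, so reads of DINOL and CDKN1A cannot be told apart where they overlap. RAB44, 10494 bases to the right of CDKN1A, had 0.37 over both batches (adjusted p = 0.489). BTG2-DT, a divergent noncoding RNA 194 bases from BTG2, had 0.17 (adjusted p = 0.475).

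Around PLK3, the overlapping DYNLT4 on the opposite strand had -0.10 over both batches (adjusted p = 0.779 by edgeR), with the same limit on strand. BTBD19, which lies 2533 bases to the right of PLK3 on the same strand, rose by 0.73 (SE 0.081, adjusted p = 4.32e-06). BEST4, to the left, had -0.20 (adjusted p = 0.838). GNG12 next to GADD45A (-0.03), GPR19, 122 bases from CDKN1B (-0.10), and FAF1, 478 bases from CDKN2C (0.04), did not pass the test.

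Genes with the most similar pattern over the 12 samples were found by the root mean square difference of log2(CPM + 1), each sample taken relative to the unirradiated, drug-free mean of its batch, among 15944 genes. Nearest to CDKN1A were FDXR (0.333), BTG2 (0.535) and SPATA18 (0.571), where the median gene stood at 2.27. For BTG2 they were GAS6-AS1 (0.144), SPATA18 (0.155) and DDB2 (0.211), with a median of 1.77. For PLK3 they were GADD45A (0.184), POLH (0.187) and HELZ-AS1 (0.192), with a median of 1.09. For PLK2 they were DCST1 (0.0898), CDK3 (0.0999) and RPL23AP82 (0.107) against a median of 0.267, so many genes lay close to it. These patterns use the summed samples of batch 1, which combine the opposite changes of PLK2 in t1 and t2.

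The wider pathway moved as follows after 6 Gy over both batches, where the median of all genes was -0.02 on the log2 scale and 4.05% of 29195 genes were called, 697 higher and 485 lower. Of 14 tested other p53 targets of cell cycle arrest, 7 rose and none fell, with a median log2 fold change of 0.79. They included SESN2 (1.86), a sestrin that restrains mTORC1, PPM1D (1.70), the phosphatase WIP1 that turns off the damage signal, and CCNG1 (1.52). Of 30 p53 targets with other roles, 27 rose and none fell, with a median of 1.48; the leaders were FDXR (2.95), SPATA18 (2.61), MDM2 (2.59), the ubiquitin ligase that degrades p53, and BBC3 (2.39), the proapoptotic PUMA.

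Relatives of the 8 by family went both ways: of 14, 2 rose and 2 fell, against 4.05% of all genes called in either direction. BTG3 rose by 1.06 (SE 0.0975) and GADD45G by 0.57 (SE 0.106), while PLK1, the mitotic polo-like kinase, fell by 1.25 (SE 0.0976) and CDKN3 fell by 0.60 (SE 0.0824). Within the families, then, PLK3 rose, PLK1 fell, and PLK2 and PLK4 (-0.03, adjusted p = 0.912 by edgeR) did not pass the test. GADD45A and GADD45G rose and GADD45B (-0.20, adjusted p = 0.451) did not pass. The INK4 genes CDKN2A (-0.15), CDKN2B (0.12) and CDKN2D (-0.21) did not pass either.

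Among the cyclins and CDKs that these inhibitors bind, 4 of 12 fell and none rose, where 485 of all 29195 genes fell. They were the mitotic genes CCNB1 (fell by 1.21), CCNB2 (fell by 0.94), CDK1 (fell by 0.43) and CCNA2 (fell by 0.41). The median over the 12 was -0.05. The G1 partners CDK2 (0.10), CDK4 (0.08), CDK6 (-0.11) and CCND1 (0.07) did not pass the test. Of 20 RB, E2F and DREAM genes 4 rose and 1 fell, with a median of 0.13; E2F7, a repressor E2F and itself a p53 target, rose by 0.90, E2F1 by 0.46 and RBL2 by 0.43, and E2F8 fell by 0.36.

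Of 17 tested immediate early genes, which respond to handling and serum within minutes, IER2 rose (0.35) and KLF6 fell by 0.84, and the median was 0.05. Of the 16 androgen receptor targets, 1 rose and 4 fell after 6 Gy, with a median of -0.20; KLK3 fell by 0.41, SLC45A3 by 0.32, ZBTB16 by 0.30 and TMPRSS2 by 0.30, and PMEPA1 rose by 0.31. Apart from these targets and 2 of the 9 luminal markers, which fell, no listed gene was called for enzalutamide averaged over 6 Gy. None of the listed genes was called for the interaction. The lists are descriptions of genes chosen with results known.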

How the data were processed

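PRO-seq of LNCaP cells was deposited as 1 table of raw read counts per Ensembl gene for each batch; the authors' values are whole and sum to unequal library totals, as the deposited files show. Per the submitters' processing notes, reads were handled with cutadapt 1.8.1, Bowtie2 2.4.4 and SAMtools 1.9 on hg38. The counting tool, annotation release, use of strand and any removal of duplicates are not given in the sources used here. Of 60605 identifiers, 60463 matched a table of gene names. All columns of the tables were used.

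Counts of t1 and t2 were summed per replicate, which gave 12 samples. Genes were kept by filterByExpr, scaled by TMM and tested with edgeR 4.0.16 (glmQLFit and glmQLFTest, R 4.3.3), two-sided, with Benjamini-Hochberg adjustment over all genes tested and a threshold of 0.05. The model for batch 2 held 6 Gy, enzalutamide and their interaction over 8 samples. The drug effect averaged over 6 Gy came from the model without interaction. Batch 1 was fitted alone, and both batches without the drug were fitted with batch as a covariate and, for the difference, with batch by 6 Gy. Each SE is the log2 fold change over the root of its F statistic, and 95% intervals use the t distribution. CPM values are counts scaled to library size, with the SD of 2 replicates.

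Alternatives were RLE factors, total counts, no filter, DESeq2 1.42.0, a replicate block, only the 2 groups compared, t1 or t2 alone, and each sample left out. The steps were tested on simulated counts.

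The genes, lists and comparisons were chosen with earlier results of these data known. Named were all 8 genes; of each list, at most the 4 genes with the largest changes among those called over both batches (1 such gene and 1 list are not reported here); neighbours in RefSeq; the 3 genes nearest in pattern to each of CDKN1A, BTG2, PLK2 and PLK3 with a mean of at least 50 counts; and KLK3, KLK2, TMPRSS2 and FKBP5. Other genes of the lists (PLK4, GADD45B, CDKN2A, CDKN2B, CDKN2D, CDK2, CDK4, CDK6 and CCND1) were named after their values were seen. Promoter windows are from RefSeq on GRCh38.p14.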

Additional observations from a re-analysis of the deposited data

Results flagged for a closer look

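In 4 of the 8 genes the change after 6 Gy in batch 1 differed between the t1 and the t2 libraries by a test of the difference itself (edgeR, adjusted over 23335 genes). The difference, t1 minus t2 on the log2 scale, was 2.11 for PLK2, 1.88 for GADD45A, 1.47 for CDKN1C and 1.11 for PLK3. PLK2 was higher after 6 Gy in both t1 replicates and lower in both t2 replicates, and 40.9% of all genes tested also differed between t1 and t2, 4848 with the higher change in t1 and 4686 with the lower (5963 and 3522 when libraries were scaled by total counts). In 16 groups of 4 batch 1 libraries, no library was marked by its gap to the next value relative to the range. Each group mixed t1 and t2 libraries, and a difference between them widens the range. The rule can therefore miss a far library.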

How the results depend on the processing

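Replicate numbers are shared within a batch. Replicate differences of same-numbered samples correlated across genes at r = 0.253 to 0.457 between the groups of batch 2 and 0.343 in batch 1, but with 2 numbers a batch this does not establish that the numbers pair the samples. With the replicate block, 1315 genes were called for 6 Gy in vehicle cells, 951 in enzalutamide cells, 2332 in batch 1 and 1954 over both batches, 96 for the difference between batches, 55 for enzalutamide in either state, 272 averaged and 1 for the interaction. Of the 8 genes the block added CDKN1B (-0.28, adjusted p = 0.0337) and CDKN2C (-0.48, adjusted p = 0.0194) in enzalutamide cells, PLK2 in batch 1 (0.41, adjusted p = 0.000516) and, as 1 gene for the difference between batches, CDKN1A (0.60, adjusted p = 0.0148), and it lost none. 

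Without a filter on low counts 624 genes were called in vehicle cells, 556 in enzalutamide cells, 1157 in batch 1, 119 for the batch difference, 74 and 64 for enzalutamide without and with 6 Gy, 230 averaged and 32 for the interaction. PLK2 then passed in batch 1 (0.42, adjusted p = 0.0377) and CDKN1C over both batches had 0.017. DESeq2 called 13 and 7 genes for enzalutamide without and with 6 Gy and 54 averaged; a fit of only the 2 groups called 2 and 7. For t1 minus t2, total counts moved the median of all genes from 0.07 to 0.24.

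With t1 alone, batch 1 gave 3995 calls, both batches 800 and the batch difference 452, of which 2 among the 8; t2 alone gave 9800, 657 and 5646, again with 2 of the 8. With t2 alone PLK2 was -0.84 in batch 1, -0.39 over both batches and -0.89 for the batch difference, and CDKN1C was -0.70 in batch 1. With t1 alone CDKN1C was 0.31 over both batches, and the batch difference was 0.14 for CDKN2C, 0.90 for GADD45A and 0.49 for PLK3; with t2 alone it was -0.95 for GADD45A. The cause was not tested.

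Leaving out 1 sample at a time, the number of the 8 genes called was 4 to 6 in vehicle cells, 4 to 7 in batch 1, and 2 to 4 for t1 against t2. Over all genes, calls ran from 161 (without irradiated vehicle replicate 4) to 511 (without enzalutamide replicate 4) in vehicle cells, from 139 (without irradiated enzalutamide replicate 4) to 434 (without enzalutamide replicate 4) in enzalutamide cells, from 587 (without irradiated replicate 2) to 1509 (without mock replicate 2) in batch 1, from 7 to 36 for enzalutamide averaged, from 2 to 10 and 1 to 6 for it without and with 6 Gy, from 0 to 4 for the interaction and from 5790 to 9132 for t1 against t2. Ranges of single genes are not given for the drug without or with 6 Gy. For CDKN1C they are also not given in enzalutamide cells, for the batch difference, for enzalutamide averaged or for the interaction. Among the ranges given, those that crossed 0 were, in vehicle cells, -0.72 to 0.33 for CDKN1C and -0.10 to 0.23 for PLK2. PLK2 ranged from -0.047 to 0.40 in enzalutamide cells. CDKN1C ranged from -0.19 to 0.23 in batch 1 and -0.15 to 0.13 over both. For the batch difference they were -0.40 to 0.053 (CDKN2C), -0.29 to 0.14 (GADD45A) and -0.24 to 0.03 (PLK3). For enzalutamide averaged they were -0.049 to 0.16 (CDKN1A), -0.080 to 0.0093 (GADD45A) and -0.043 to 0.13 (PLK2), and for the interaction -0.084 to 0.0059 (BTG2), -0.43 to 0.18 (CDKN1A), -0.10 to 0.34 (PLK2) and -0.35 to 0.071 (PLK3). CDKN1A, BTG2, GADD45A and PLK3 stayed called upward after 6 Gy in vehicle, enzalutamide and batch 1 cells and over both batches under each alternative run.

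With 2 replicates a group the intervals are wide, and CDKN1C had only 8 to 48 counts a sample. Intervals cover the spread between these samples only.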
